A study of Mus musculus with 4 samples.

Results

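The cells described here are CCR7 migratory dendritic cells (DCs) of the St18 Ccl17 type, 1060 of the 10297 cells that passed the filters. They were taken from the mesenteric lymph nodes of 12 untreated mice aged 15 days. The animals carried Gm38411-iCre-hCD2 and R26 tdTomato: the first allele places the recombinase iCre and a human CD2 surface reporter (hCD2) at Gm38411, and the second turns on tdTomato in cells where the recombinase has acted and in their progeny. Every cell analysed came from a CD3- B220- CD11c+ MHC-II+ tdTomato+ gate and was then parted by hCD2, so that tdTomato, like both alleles, is shared by the 2 groups compared. The hCD2+ fraction was 1 library with 5964 kept cells and the hCD2- fraction 1 library with 4333, and an effect of hCD2 status and one of its library cannot be told apart. All 12 mice, told apart by 1 hashtag antibody each, gave cells to both fractions, and the mouse is the replicate throughout.

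The members were selected on their measured UMIs, so the values of the genes named in this paragraph chose them. A kept cell had exactly 1 hashtag, at least 500 genes, at most 10% mitochondrial UMIs (unique molecular identifiers, each standing for 1 captured transcript) and at least 5000 gene UMIs. A CCR7 DC then had at least 500 CPM of Ccr7 and fewer than 500 CPM of Prdm16 (CPM is 1000000 times a gene's share of the UMIs), at least 4 of the 7 genes Fscn1, Il4i1, Nudt17, Cacnb3, Apol7c, Zmynd15 and Socs2, and at most 1 UMI of Cd3e and Cd3d together. It was of the St18 Ccl17 type if the UMIs of St18, Dkk2, Col27a1, Ccl17 and Ccl22 outnumbered those of Bcl2l14, Mab21l3, Cpne8, Il12b and P3h2. The members were 377 hCD2+ cells and 683 hCD2- cells, with 16 to 65 and 26 to 136 per mouse, and a median of 32178 and 29819 UMIs per cell. The opposite inequality gave 198 hCD2+ and 198 hCD2- cells of the Il12b Cpne8 type, and 49 cells had equal scores. The libraries shared 20 cell barcodes, 2 of which were those of hCD2+ members and 3 those of hCD2- members.

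Migratory DCs take up antigen in a tissue such as the gut wall, switch on the chemokine receptor CCR7, and follow its ligands through the lymph into the draining node, where they present the antigen to T cells. On the way they raise costimulatory molecules and lose much of their uptake machinery, in steady state as well as in infection. CCL17 and CCL22, both ligands of the receptor CCR4, are products of such mature DCs and attract regulatory T cells and type 2 helper T cells. In mesenteric nodes, migratory DCs are known for making retinoic acid through ALDH1A2 and for activating latent TGF-beta through the integrin of the ITGAV and ITGB8 chains, 2 routes to peripheral regulatory T cells.

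The genes of the 2 chemokines lie near each other on chromosome 8 (GRCm38.p6, RefSeq): Ccl22 (ENSMUSG00000031779) at chr8:94745684-94751388 and Ccl17 (ENSMUSG00000031780) at chr8:94809380-94812038. Their upstream sequences are shown because the 2 genes varied together from member to member and carried most of the score. Each runs 5′ to 3′ on the plus strand up to the base before the first GENCODE vM21 exon of the gene, from chr8:94810203-94810452 for Ccl17, which lies within the longer RefSeq span of that gene, and from chr8:94745434-94745589 for Ccl22. Capitals mark matches to the palindromes TTCNNNNGAA and TTCNNNGAA, the forms bound by STAT6 and by STAT5, signal transducers downstream of IL-4 and of TSLP.
Ccl17: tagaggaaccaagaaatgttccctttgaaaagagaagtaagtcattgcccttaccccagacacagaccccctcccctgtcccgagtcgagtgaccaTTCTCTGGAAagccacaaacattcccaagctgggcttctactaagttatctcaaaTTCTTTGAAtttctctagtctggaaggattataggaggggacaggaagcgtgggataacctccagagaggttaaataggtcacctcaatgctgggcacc
Ccl22: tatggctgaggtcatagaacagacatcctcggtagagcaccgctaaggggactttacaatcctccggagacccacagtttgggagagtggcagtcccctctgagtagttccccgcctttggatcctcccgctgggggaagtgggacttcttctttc
The Ccl17 window held 1 match to TTCNNNNGAA, 154 to 145 bases before the start of the RefSeq transcript, and 1 to TTCNNNGAA, 99 to 91 bases before it; being palindromes, they match on both strands, and they do not overlap. In windows of 250 bases before the starts of 32817 RefSeq transcripts, 5.85% held the first pattern and 7.01% the second. The 250 bases before the Ccl22 start, of which the last 94 lie in the longest annotated first exon and are not printed, held neither pattern nor a kB site (found in 3.90% of windows). A match of letters is a description and not a measured binding site.

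The score difference that chose the members is given as a description. Its median was 38 UMIs and its highest value 940, and 727 members stood at 20 or more. At the edge of the rule, 35 members had a difference of exactly 1 UMI, while 49 CCR7 DCs just outside had a difference of 0, 33 of them with no UMI of any of the 10 genes. A difference of 1 to 4 UMIs held 113 members, and one of -1 to -4 held 50 cells of the other type. The type is thus a range of a score, without a gap between it and its neighbours.

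**Figure D1:**
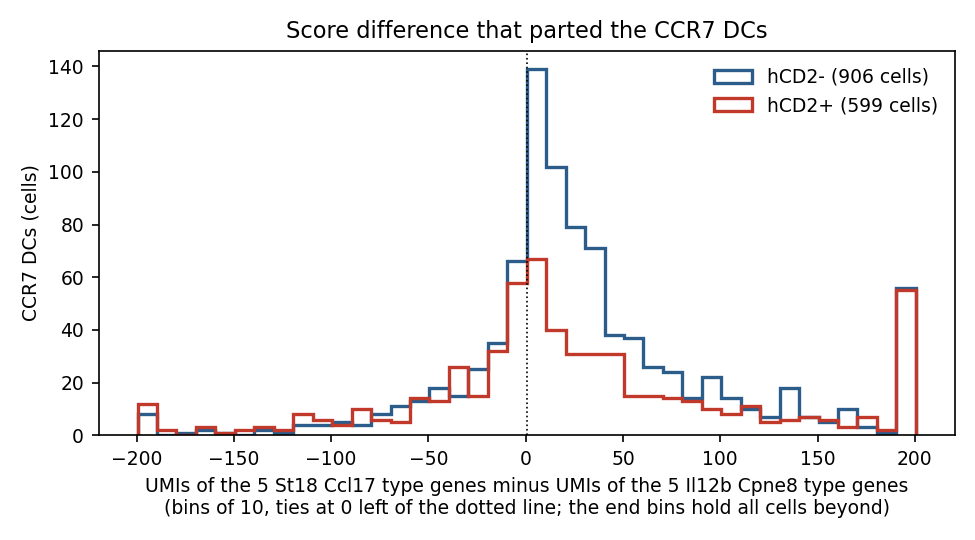
Number of CCR7 DCs (y axis) by the UMIs of the 5 St18 Ccl17 type genes minus the UMIs of the 5 Il12b Cpne8 type genes (x axis, bins of 10 UMIs), in hCD2+ cells (red) and hCD2- cells (blue). Cells right of the dotted line are the 1060 members; the counts are highest just inside the line and show no gap there.

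The label was held against cell type markers. The T cell list held Cd3e and Cd3d, which the rule had capped, and the cells came from a CD3- sort. Zbtb46, a transcription factor of classical DCs, stood at a mean of 386 and 411 CPM, over the summed UMIs of the members of a mouse, in hCD2+ and hCD2- members, and Flt3, the receptor of the DC growth factor, at 396 and 471 CPM. The summed level of 8 T cell markers was 2.77% and 2.17% of that in nearly empty droplets of the same library (10 to 100 UMIs, a measure of free RNA). The same share was 128% and 94.5% for 5 pDC markers, nearly all of it Tcf4 (317 and 255 CPM), with Siglech at 0.111 and 0.261 CPM. It was 77.1% and 128% for 6 B or plasma cell markers, with medians of 11.8 and 18.9 CPM. It was 34.7% and 70.8% for 8 monocyte or macrophage markers, and 12.6% and 59.9% for 10 ILC3 or LTi markers, with medians of 426 and 395 CPM. The cDC1 markers Xcr1 (0.202 and 0.743 CPM) and Clec9a (0.840 and 0.954 CPM) and the cDC2 markers Cd209a (listed at 0, and 0.628 CPM) and Mgl2 (0.954 and 1.29 CPM) were close to 0. Other members of those lists were not: Irf8 stood at 215 and 96.7 CPM, Cadm1 at 104 and 34.7 CPM, Sirpa at 122 and 160 CPM and Irf4 at 125 and 133 CPM. Summed, 7 cDC1 markers had medians of 303 and 137 CPM (68.5% and 22.4% of droplets) and 8 cDC2 markers 280 and 337 CPM (150% and 113%). In gated hCD2- cells Xcr1 had 382 CPM and Clec9a 353 CPM in cDC1, and Cd209a 63.5 CPM and Mgl2 12.9 CPM in cDC2. Of 5 endothelial or stromal genes, Cdh5 was at 0 in both fractions. Hemoglobin and Alas2 transcripts summed to a median of 7.50 CPM in hCD2+ mice but reached 7606 CPM in 1 of them. The members thus held transcripts shared by classical DCs and some of each lineage, while Xcr1, Clec9a, Cd209a and Mgl2 were near 0.

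Ccr7, the receptor that defines migratory DCs, stood at 2046 ± 246 CPM in hCD2+ and 2371 ± 319 CPM in hCD2- members (SD, n = 12 mice each). Gated cDC1 of the hCD2- library, cells with at least 3 of 6 cDC1 genes and low Ccr7, held 22.4 ± 19.4 CPM (n = 11), and gated cDC2 held 85.6 ± 20.8 CPM (n = 12). Ccl22 ranged from 1323 over a median of 2151 to 3209 CPM in hCD2+ members and from 674 over 1113 to 1946 CPM in hCD2- members, against means of 6.23 and 7.81 CPM in gated hCD2- cDC1 and cDC2. Ccl17 ranged from 167 over 376 to 1189 CPM and from 98.0 over 258 to 747 CPM. The members thus held Ccl22 far above the gated hCD2- cDC1 and cDC2, which the rule fixed in part. Ccl17, Ccl22, St18, Dkk2, Col27a1 and Ccr7 helped to choose the cells. Their values here and below are a description, left out of the counts of calls per gene list.

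The other CCR7 DC type was the closest neighbour, and the 2 types were compared as a description over the 21 mouse and fraction pairs with at least 10 cells of each. Of 3505 genes with at least 50 CPM in the higher type, 62 (1.77%) were at least 2-fold higher in the St18 Ccl17 type and higher in all 21 pairs, and 77 (2.2%) were lower by the same measure. The types were parted by UMIs of the same cells, so these values are a description without a test, and the counts are the background for the gene lists below.

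Among the score genes, St18, a zinc finger transcription factor, had a median of 217 CPM over the pairs against 13.2 CPM in the Il12b Cpne8 type. Dkk2, a secreted modulator of Wnt signalling, had 78.5 CPM, and the other type was listed at 0 in the median pair. Genes outside the rule with the largest ratios were Stxbp6 (114 against 10.5 CPM), which encodes a partner of the membrane fusion machinery, Car2, a carbonic anhydrase (220 against 26.8 CPM), and Peli2, a ubiquitin ligase of the Toll-like receptor pathway (51.4 against 7.37 CPM). The neutrophil-attracting chemokine gene Cxcl1 had 166 against 35.6 CPM and the fatty acid-binding protein gene Fabp5 1624 against 366 CPM. Each of these 7 genes was higher in 21 of 21 pairs.

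Irf4, the transcription factor of cDC2 and of their migration, had a median of 124 against 47.3 CPM, and the cDC2 marker Sirpa 146 against 36.9 CPM, both higher in 21 of 21 pairs. Irf8, the factor of cDC1, had 146 against 505 CPM, and Clec9a 0.420 against 21.8 CPM. Zeb2, a factor of the cDC2 and monocyte lineages, had 344 against 129 CPM and was higher in 20 pairs. Of the cDC2 markers at 50 CPM or more, 2 of 2 had medians at least 2-fold higher and that direction in every pair (1.77% of all genes), and of the cDC1 markers 1 of 2, Irf8, was lower by the same measure (2.2% of all genes).

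Of 14 genes of MHC class II presentation at 50 CPM or more, 3 (H2-DMb2, H2-Aa and H2-Eb1) were at least 2-fold higher in the median with that direction in every pair, and 0 were lower. H2-DMb2, a chaperone of peptide loading, had 167 against 50.3 CPM. Of genes that were higher in 20 pairs, Ciita, the master activator of MHC class II genes, had 121 against 31.9 CPM and the class II chain gene H2-Ab1 1486 against 411 CPM. Of 17 class I genes 0 met this measure in either direction, and H2-Q7 had 290 against 434 CPM (lower in 19 pairs). Cd40, the receptor for T cell help, had 643 against 290 CPM, Cd86 875 against 453 CPM and Cd80 334 against 189 CPM. Each of these 3 was higher in 20 of 21 pairs.

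Of 5 cytokine genes at 50 CPM or more, 1 (Ebi3) was higher and 1 (Il15ra) lower by this measure. Ebi3, a subunit of IL-27 and IL-35, had 263 against 113 CPM. Il1b, which did not meet the measure, had 376 against 56.6 CPM. Il12b, a subunit of IL-12 and IL-23 and itself a rule gene, had 117 against 1020 CPM, Il15ra, which presents IL-15, 166 against 363 CPM, and Ccl5, a chemokine for effector T cells, 2257 against 4360 CPM. The last 2 were lower in 21 of 21 pairs.

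Genes tied to regulatory T cell induction did not share a direction between the types. Aldh1a2, the retinoic acid enzyme, had a median of 155 CPM against 210 CPM and was higher in the Il12b Cpne8 type in 17 of 21 pairs. Itgb8 had 47.8 against 279 CPM and was higher in that type in 19 of 21 pairs. Lgals1, encoding galectin-1, had 70.6 against 24.2 CPM and Socs3, a brake on cytokine signalling, 37.1 against 9.89 CPM, higher in the St18 Ccl17 type in 21 and 19 pairs. Bcl2l1, a survival factor, had 470 against 198 CPM in 21 of 21 pairs.

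**Figure D2:**
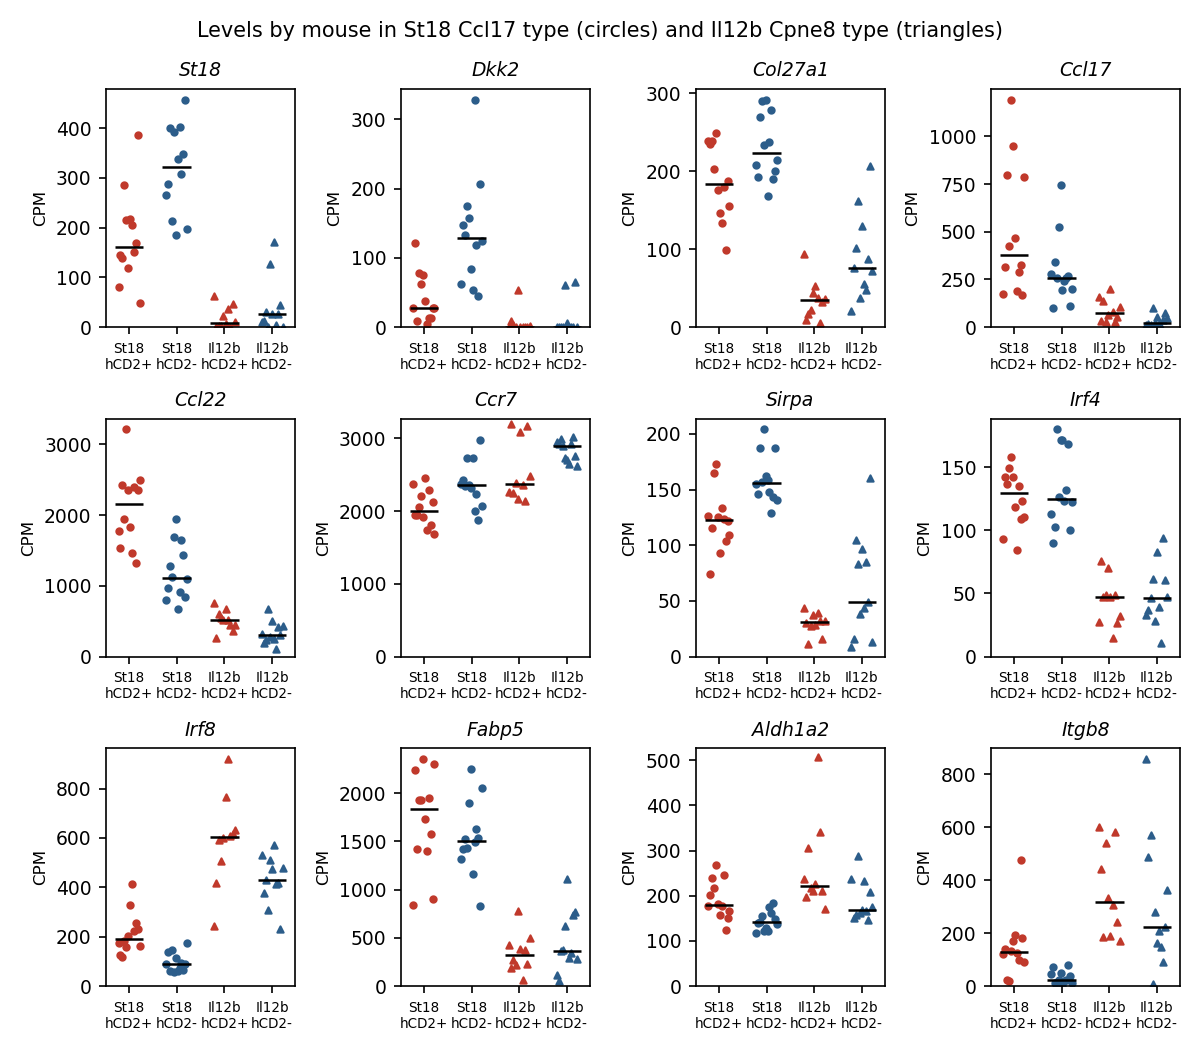
CPM (y axes, linear from 0) of 12 genes in each mouse with at least 10 cells, in St18 Ccl17 type cells (circles) and Il12b Cpne8 type cells (triangles) of the hCD2+ (red) and hCD2- (blue) fractions, with medians as bars. St18, Dkk2, Col27a1, Ccl17 and Ccl22 helped to define the type; Irf4 and Fabp5 are higher in the St18 Ccl17 type, and Irf8 and Itgb8 in the Il12b Cpne8 type.

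Members differed widely among themselves. All 5 score genes were detected in 102 members, 4 in 353, 3 in 368, 2 in 169 and 1 in 68. St18 and Ccl17, the namesakes, were found together in 342 members, St18 alone in 234, Ccl17 alone in 348 and neither in 136. Detection follows depth, and with each cell thinned to 5000 UMIs St18 was found in 27.9% of hCD2+ and 41.3% of hCD2- members, Ccl17 in 46.2% and 34.4%, Ccl22 in 82.8% and 71.3%, and Dkk2 in 8.49% and 19.5%. Ccl17 and Ccl22 gave a median of 85.6% of the score in hCD2+ and 62.5% in hCD2- members.

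The 2 chemokines varied together, and St18 did not follow them. On thinned cells, Spearman's rho of Ccl17 with Ccl22 was 0.529 over 377 hCD2+ members and 0.508 over 683 hCD2- members. It was 0.585 and 0.601 for Ccl22 with Fscn1, the actin bundler of mature DCs, and 0.482 and 0.504 for Ccl22 with Cd40. For Ccl17 with St18 it was -0.062 and -0.21, and for St18 with Fscn1 -0.162 and -0.336. These are descriptions over cells of 1 library each, which share mice and a total of UMIs, and both chemokines and St18 add to the sum that chose the cells, which by itself ties them to each other.

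To show what moved with the chemokines, the members of each mouse and fraction were parted at their own median CPM of Ccl17 plus Ccl22. Over the 21 mouse-fractions with at least 20 members (9 hCD2+ and 12 hCD2-), 121 of 3472 genes (3.49%) were at least 1.5-fold higher in the chemokine-rich members, with that direction in at least 19 of 21, and 175 (5.04%) in the chemokine-poor ones. Rich members had a median of 32862 UMIs and poor members 29030.

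By this measure and without rule genes, 4 of 12 costimulatory genes were higher in chemokine-rich members (Cd40, Cd86, Tnfsf9 and Pvr) and 1 in chemokine-poor ones (Icosl). Of 10 survival genes, 3 were higher in rich members (Bcl2l1, Bcl2a1b and Bcl2a1d) and 0 in poor ones. Cd40 had a median of 873 CPM in rich against 339 CPM in poor members, Tnfsf9, the ligand of 4-1BB, 384 against 115 CPM, Bcl2l1 681 against 233 CPM and Fscn1, a rule gene, 3500 against 1705 CPM, all higher in 21 of 21. Irf4 had 171 against 73.0 CPM and Ebi3 342 against 149 CPM, also in 21 of 21. Il2ra, the alpha chain of the IL-2 receptor, had 185 against 64.1 CPM and the chemokine gene Cxcl2 219 against 32.4 CPM. Stat5a had 302 against 185 CPM (19 of 21), and Aldh1a2 183 against 109 CPM (18 of 21, one short of the count asked for).

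Of 14 class II genes 2 (H2-Oa and H2-Eb2) were higher in chemokine-poor members and 0 in rich ones, and of 12 immediate early genes 3 were higher in poor and 1 in rich members. H2-Oa, a regulator of class II peptide loading, had 80.5 against 35.8 CPM, Kit, the stem cell factor receptor, 94.3 against 30.0 CPM, and Prkcb, a signalling kinase, 297 against 72.8 CPM. The immediate early genes Fos (368 against 162 CPM) and Fosb (290 against 119 CPM) were higher in poor members in 20 and 21 of 21. The rule gene St18 had 320 against 173 CPM and was higher in poor members in 16 of 21. A member with few chemokine UMIs met the rule through St18, Dkk2 or Col27a1, and the part of the rule in that direction was not tested. Col27a1 went with the chemokines, with a rho with Ccl22 of 0.251 in hCD2+ and 0.256 in hCD2- thinned members. Ccr7 was nearly level, at 2332 against 2243 CPM, as was Dkk2, at 67.3 against 70.8 CPM.

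**Figure D3:**
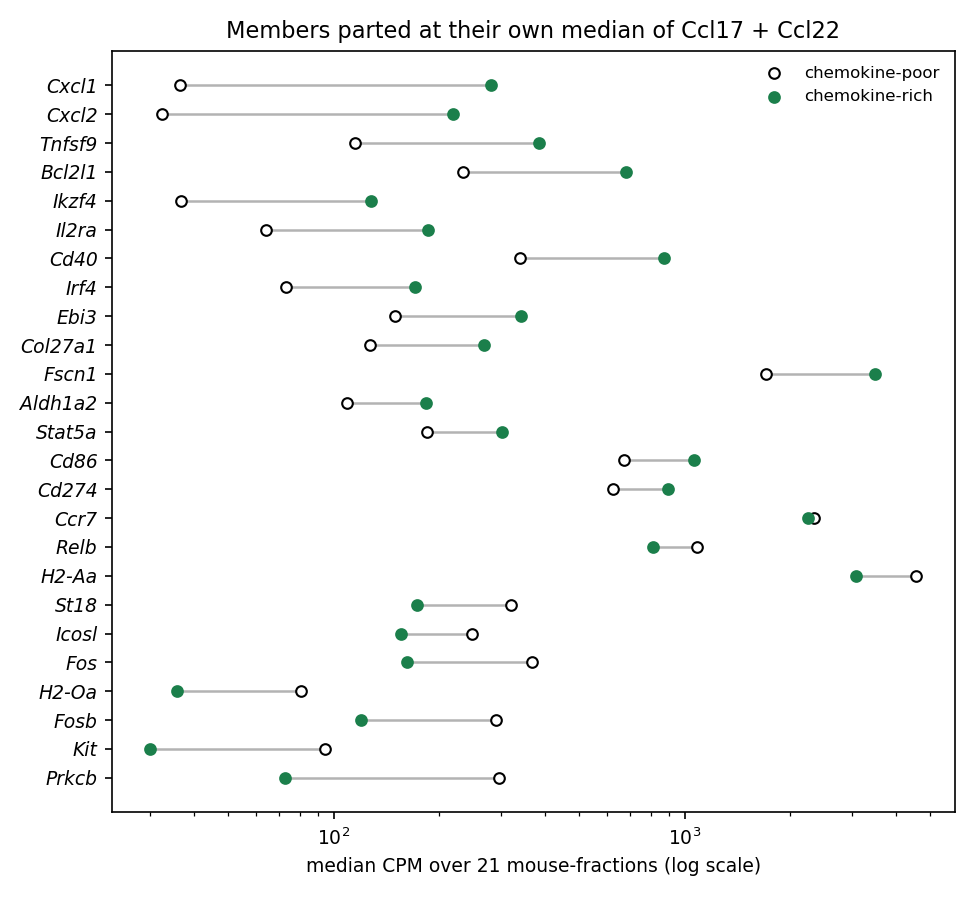
Median CPM over 21 mouse-fractions (x axis, log scale) of 25 genes in the chemokine-poor (open) and chemokine-rich (green) members of the St18 Ccl17 type, parted within each mouse and fraction at the median of Ccl17 plus Ccl22. Cxcl1 at the top lies furthest to the rich side and Prkcb at the bottom furthest to the poor side, while Ccr7 is nearly level.

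The first test across mice asked whether the type took a different share of each fraction. It made up 6.34% ± 2.31 of kept hCD2+ cells and 15.6% ± 4.77 of kept hCD2- cells (SD, n = 12 mice each), with ranges of 2.77% to 11.8% and 6.95% to 25.1%. The share was higher in the hCD2- fraction of 12 of 12 mice, and the difference of -9.23 percentage points had a two-sided permutation p of 2e-05 (adjusted over 2 tests, 4e-05). That test did not pair the fractions of a mouse, and exact sign flips over the paired mice gave p = 0.000488. The ranges of the fractions overlap, but no mouse went against the difference.

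Among CCR7 DCs of both types, including ties, the St18 Ccl17 type made up 62.2% ± 5.16 of hCD2+ and 75.2% ± 6.67 of hCD2- cells (n = 12 each). The difference of -13.0 points had a two-sided permutation p of 6e-05 (adjusted, 6e-05), and 1 of 12 mice, with 70.6% and 61.2%, went the other way. Paired by mouse, exact sign flips gave p = 0.00244. The sort set the hCD2 of both fractions, and the hCD2+ fraction also held 499 CCR7 cells with Prdm16 above the limit of the rule against 20 in the hCD2- fraction, so that the share of kept cells depends on which other cells passed each gate. Cells with a T cell UMI (Cd3e, Cd3d, Cd3g or Trac) were more frequent among hCD2- members, and without them the shares of kept cells were 5.61% ± 2.21 and 11.5% ± 3.39, a difference of -5.89 points.

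**Figure D4:**
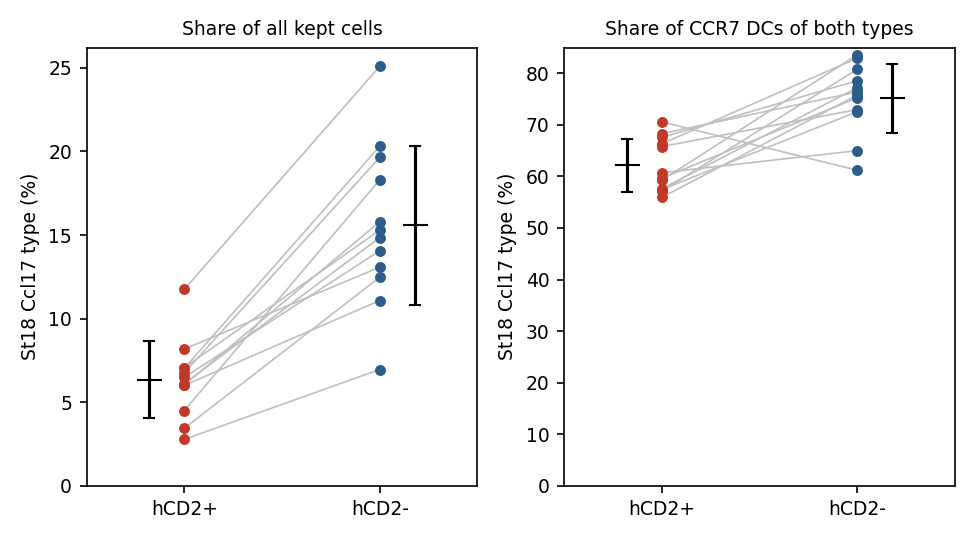
Share of the St18 Ccl17 type (y axes, %) among all kept cells (left) and among CCR7 DCs of both types (right) in each of 12 mice, with grey lines joining the fractions of a mouse and black bars for mean ± SD. The hCD2- share is higher in 12 of 12 mice on the left and in 11 of 12 on the right.

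The second test asked what differed between hCD2+ and hCD2- members within the type, over UMIs summed per mouse and fraction. edgeR's quasi-likelihood test called 1113 of 7263 genes tested (15.3%) at a Benjamini-Hochberg adjusted p under 0.05, 591 higher in hCD2+ members (8.14%) and 522 lower (7.19%), with a median log2 fold change of 0.01 over all genes tested. These shares are the background for the counts below that come from this fit. Other fits are named where used and had their own shares. They called 17.4% of genes with the mouse as a block, 17.1% with DESeq2, 13.5% with thinned cells and 15% with at least 20 cells per mouse. Each log2 value below is hCD2+ minus hCD2-, with its SE. The 12 mice of the fractions did not overlap for 39 genes (0.537%). Of these 39, 12 were ribosomal protein genes or their named copies, such as Rps29 (623 against 1296 CPM), and 33 differed in the same direction in the nearly empty droplets; the part of such differences between the libraries was not tested.

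Before the genes are read, the values of another cell type that moved with the fraction are given. Of the members, 113 hCD2+ (30.0%) and 45 hCD2- (6.59%) held at least 2 of 9 markers of Prdm16 or Aire DCs (Prdm16, Aire, Pigr, Trp63, Col17a1, Ackr3, Prr29, Plekhs1 and Epcam), and 70 (18.6%) and 5 (0.732%) did so when thinned to 5000 UMIs. Their summed level ranged from 109 over a median of 328 to 581 CPM per mouse in hCD2+ and from 17.9 over 30.9 to 100.2 CPM in hCD2- members, with Pigr at 0 in the latter. It was 842 and 40.6 CPM in nearly empty droplets and had a median of 3790 CPM in the Prdm16-high CCR7 cells of the hCD2+ library. Without the members that held at least 2 of these markers, 650 of 6960 genes were called (9.34%), 460 of them also called before. Without those that held any, only 7 hCD2+ mice kept the minimum of 10 cells, and the other hCD2+ mice were left out. That fit used 121 hCD2+ and 406 hCD2- cells, and 240 of 6522 genes were called (3.68%), 168 of them called before. These 2 shares are the background for the counts from these fits. Both fits were added after the data were seen. Of 55 called genes outside the rule that were named by the fixed rule for names, 46 were tested in the first of these fits and 26 were still called. The 20 lost were Adam19, Adam23, Adgre4, Bax, Birc3, Bst2, Cd83, Dhrs3, Etv6, Il1rn, Il4ra, Irf8, Itga4, Itgav, Mir99ahg, Nlrc5, P3h1, Ralgapa2, Tlr1 and Tlr11. In the second, 45 were tested and 11 still called: Aldh1a2, B2m, Cd180, Coro1b, Etv3, Hmga1, Icosl, Nfkbib, Prkcb, Ptpn22 and tdTomato. The part of these cells in the results was not tested beyond these fits.

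tdTomato, selected for in both fractions, ranged from 123 over a median of 195 to 236 CPM in hCD2+ and from 302 over 342 to 397 CPM in hCD2- members. The ranges do not overlap, and tdTomato was lower in hCD2+ members (log2 -0.83 ± 0.08, adjusted p = 1.75e-08, 12 of 12 mice), as it was in the droplets (158 against 246 CPM). Gm38411, whose locus drives hCD2, and hCD2 itself had too few counts to be tested, with means of 5.47 ± 4.20 against 0.553 ± 0.544 CPM and 5.77 ± 4.17 against 0.915 ± 1.51 CPM (n = 12 each). In thinned hCD2+ members, 2.39% held a Gm38411 UMI (95% Wilson interval 1.26 to 4.47) and 1.86% an hCD2 UMI (0.902 to 3.78). T cells of the same library and sort held them in 2.17% (1.05 to 4.41) and 1.24% (0.483 to 3.14). Before thinning, the median was 17446 UMIs in these T cells and 32178 in the members. Because of that gap in depth, the shares cannot tell whether the members stood above the background. In the hCD2- library, 3 of 683 thinned members and 0 of 907 thinned T cells held a Gm38411 UMI, with the same counts for hCD2. The intervals cover counting error only.

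Of the called genes of largest fold on the hCD2+ side, B3galt1, Cep112 and Epcam had higher means in the Prdm16-high CCR7 cells than in the members. B3galt1, a galactosyltransferase, had a log2 of 3.43 ± 0.57 (adjusted p = 0.000118, 12 of 12 mice), Cep112, a centrosomal protein, 2.93 ± 0.34 and Epcam, an adhesion molecule, 2.79 ± 0.32. Epcam ranged from 17.4 over 76.7 to 223 CPM in hCD2+ and from 6.74 over 12.7 to 21.1 CPM in hCD2- members. In the Prdm16-high CCR7 cells of the hCD2+ library the means were 511 CPM for B3galt1, 662 for Cep112 and 264 for Epcam, and in the droplets of the 2 libraries 180 and 42.5, 131 and 6.83, and 44.6 and 6.83 CPM. Adam12, Arhgef28, Cd7, Mir99ahg, Ralgapa2 and Thrb followed, rule genes aside, with log2 values of 2.18 to 3.13. In the droplets of the hCD2+ and hCD2- libraries Adam12 had 230 and 26.1 CPM, Cd7 189 and 95.9 CPM and Ralgapa2 362 and 73.7 CPM. Pooled members were below these levels, at 28.5 and 2.94 CPM for Adam12, 27.1 and 4.85 for Cd7 and 304 and 69.5 for Ralgapa2. Prdm16 itself, which the rule capped, had 71.2 ± 25.7 against 6.23 ± 4.59 CPM and was found after thinning in 68 of 377 members and 4 of 323 T cells of the hCD2+ library. With any-marker cells left out, Ralgapa2 turned to -0.14.

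Of 14 genes tested for regulatory T cell induction and tolerance, 5 rose in hCD2+ members and 0 fell, with a median log2 of 0.40; with the mouse as a block 6 rose and 1 fell. Itgb8, the integrin chain that activates latent TGF-beta, ranged from 19.6 over 128 to 477 CPM in hCD2+ and from 0.984 over 22.3 to 78.9 CPM in hCD2- members. Most hCD2+ mice lay above every hCD2- mouse, and each mouse had more in its hCD2+ members (log2 2.17 ± 0.40, adjusted p = 0.000374). An Itgb8 UMI was found in 124 of 377 hCD2+ and 63 of 683 hCD2- members, and after thinning in 21.2% and 5.42%. In the droplets Itgb8 was at 92.6 CPM in the hCD2+ and 21.5 CPM in the hCD2- library, so the droplets differed in the same direction. Pooled members stood at 161% and 160% of these levels, and the part of the libraries in the Itgb8 difference was not tested. Aldh1a2, the source of retinoic acid, ranged from 124 over 180 to 269 CPM and from 116 over 141 to 184 CPM, with the ranges overlapping and 11 of 12 mice higher in hCD2+ (log2 0.41 ± 0.11, adjusted p = 0.0105). Aldh1a2 was at 42.0 and 42.7 CPM in the droplets, and at 92.7 CPM in the Prdm16-high CCR7 cells, below the members.

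The other 3 of the 5 were Tgfb2, a TGF-beta ligand (2.11 ± 0.43), Itgav, the partner chain of ITGB8 (0.89 ± 0.19), and Ido2, an enzyme of tryptophan breakdown (1.08 ± 0.32). Tgfb2 was at 8.37 and 2.01 CPM in the droplets, and pooled hCD2+ and hCD2- members stood at 371% and 341% of these levels. With the mouse as a block, Socs1 was also called higher (log2 0.40, adjusted p = 0.0435) and Cd274, encoding PD-L1, lower. Without members holding at least 2 Prdm16 or Aire DC markers, 3 of 12 genes were called, Aldh1a2 (0.69 ± 0.13, adjusted p = 0.000785), Itgb8 (1.46 ± 0.44, adjusted p = 0.0328) and Lgals1, and Itgav was not (0.09 ± 0.16). Without members holding any, Aldh1a2 alone was called (0.83 ± 0.17, adjusted p = 0.00468), and Itgb8 missed the threshold (1.63 ± 0.49, adjusted p = 0.0633). Tgfb2 was not tested in either of these fits.

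Of the retinoid genes, 1 of 7 rose (Aldh1a2) and 1 fell: Dhrs3, which returns retinaldehyde to retinol, had a log2 of -0.44 ± 0.12. Dhrs3 was not called without members holding at least 2 Prdm16 or Aire DC markers (-0.20, adjusted p = 0.307). Ebi3 had 250 ± 54.0 against 237 ± 44.8 CPM and was not called, and Il10 was at 0.326 and 0.828 CPM and not tested.

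Of 7 chemokine ligand genes outside the rule, edgeR called 0 (0 at an unadjusted p under 0.05). Ccl22, a rule gene, had 2091 ± 544 against 1202 ± 400 CPM in hCD2+ and hCD2- members (log2 0.79 ± 0.16, higher in 11 of 12 mice), and 264 and 225 CPM in the droplets. Ccl17 had 507 ± 340 against 293 ± 181 CPM (0.78 ± 0.33, 10 of 12 mice). Cxcl2, which the rule did not use, had 192 ± 130 against 135 ± 77.8 CPM (0.48 ± 0.33, not called), and Ccl5 2262 ± 558 against 2683 ± 677 CPM (not called). The other score genes leaned the opposite way: St18 had 180 ± 91.3 against 316 ± 88.9 CPM, Dkk2 41.6 ± 35.6 against 136 ± 78.4 CPM and Col27a1 187 ± 47.9 against 231 ± 42.4 CPM. Ccl17 and Ccl22 gave a median of 85.6% of the score in hCD2+ and 62.5% in hCD2- members, the larger part in both. A cell rich in chemokines could meet the rule with little St18 or Dkk2, and the part of the rule in the opposite lean was not tested. Without members holding any Prdm16 or Aire DC marker, St18 (-0.57 ± 0.36) and Dkk2 (-0.61 ± 0.49) missed the threshold. In that fit Ccl22 was at 1.21 ± 0.20 and Col27a1 at 0.15 ± 0.14.

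Of 13 genes of receptors, adhesion and motility outside the rule, 0 rose and 3 fell. They were Itgax, the CD11c of the sort (24.5 ± 8.71 against 46.7 ± 12.5 CPM, log2 -0.94 ± 0.17, adjusted p = 0.000436), Adam23 (-0.30 ± 0.07) and Itga4, an integrin chain for tissue entry (-0.22 ± 0.07).

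NF-kB signalling drives DC maturation, and of its 21 genes 6 fell in hCD2+ members and 1 rose. Relb, the subunit that migratory DCs depend on, ranged from 749 over 822 to 956 CPM in hCD2+ and from 893 over 998 to 1085 CPM in hCD2- members. The ranges overlap, yet 12 of 12 mice were lower in hCD2+ (log2 -0.30 ± 0.05, adjusted p = 0.000151). Traf1, an adaptor of TNF receptors, was at -0.26 ± 0.06, Birc3 at -0.28 ± 0.07 and Rel at -0.27 ± 0.08, and the inhibitor gene Nfkbib rose by 0.34 ± 0.09. Without members holding at least 2 Prdm16 or Aire DC markers 4 of 20 fell and 2 rose, and without those holding any 0 fell and 2, Cd40 and Nfkbib, rose. In these 2 fits Relb was at -0.20 ± 0.06 and -0.24 ± 0.08, and Traf1 at -0.26 ± 0.08 and -0.21 ± 0.10. Birc3 was at -0.14 ± 0.08 and -0.15 ± 0.10. The second fit had 7 hCD2+ mice, so a missed call there does not show that a difference was gone.

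Of 18 DC transcription factors, 7 fell and 1 rose. Etv3, an ETS family repressor, ranged from 705 over 862 to 995 CPM in hCD2+ and from 1019 over 1095 to 1332 CPM in hCD2- members, with no overlap (log2 -0.40 ± 0.06, adjusted p = 6.19e-05). Etv6 was at -0.28 ± 0.05, Nr4a3, an orphan receptor induced in migrating DCs, at -0.50 ± 0.11, and Runx3 at -0.45 ± 0.11. Irf8 rose, at 215 ± 85.3 against 96.7 ± 38.5 CPM (1.12 ± 0.20, adjusted p = 0.000263), but was not called without members holding at least 2 Prdm16 or Aire DC markers (0.40 ± 0.21). Irf8 had a mean of 612 CPM in the Prdm16-high CCR7 cells. Cadm1, the other tested cDC1 marker, also rose (1.65 ± 0.36), and Sirpa, of cDC2, fell (-0.40 ± 0.11), but none of these 3 was called in either fit without marker-holding members.

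Of 8 cytokine genes 2 fell: Il1b, at 240 ± 119 against 470 ± 151 CPM (log2 -0.96 ± 0.25, adjusted p = 0.00966, 11 of 12 mice; 99.97 and 352 CPM in the droplets), and its antagonist Il1rn (-1.20 ± 0.31). Of 15 costimulatory genes 2 fell: Cd83, which keeps MHC class II on the surface (-0.30 ± 0.08), and Icosl, the ligand of ICOS (-0.39 ± 0.13), with 3 falls under the block. Cd40, Cd80 and Cd86 were not called. Costimulatory calls on the higher side came from other fits: Pvr and Cd200 with thinned cells, Pvr with at least 20 cells per mouse, and Cd40, Pvr and Pdcd1lg2 in both fits without marker-holding members, where Icosl was the 1 gene that fell. Of 5 pattern recognition genes 3 fell, all with means under 30 CPM: Tlr11, Nod2 and Tlr1.

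Of 15 MHC class II genes 1 rose, the tetraspanin gene Cd63 (0.31 ± 0.07), and none of the class II chain genes was called. Of 17 class I genes H2-K1 (0.24 ± 0.07) and B2m (0.20 ± 0.06) rose (4 genes with the mouse as a block), while Nlrc5, their activator, and Wdfy4, needed for cross-presentation, fell (-0.30 ± 0.10 and -1.03 ± 0.32). Without members holding at least 2 Prdm16 or Aire DC markers, 4 class I genes rose and 1 fell, and H2-Oa and H2-Eb2 of class II fell. Bst2 was the 1 of 7 interferon genes called (1.13 ± 0.19), and not without members holding at least 2 Prdm16 or Aire DC markers (0.42 ± 0.23).

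The remaining lists had few calls. Of 7 collagen and matrix genes outside the rule P3h1, a collagen hydroxylase (0.97 ± 0.19), and Serpinb9, a granzyme B inhibitor (0.35 ± 0.09), rose and Adam19 fell. Of 11 survival genes Bax rose (0.26 ± 0.08) and Bcl2l11, also a death gene, fell (-0.47 ± 0.13). Of 9 Wnt genes outside the rule Fzd5 fell, and 1 of 12 type 2 genes, Il4ra, fell (-0.29 ± 0.10). Of 6 prostaglandin and leukotriene genes Ptges3 rose (0.20 ± 0.06). With the mouse as a block, Fzd5 and Il4ra missed the threshold (adjusted p = 0.0786 and 0.0756). The block gave 1 rise and 2 falls among the prostaglandin genes. edgeR called 0 of 13 immediate early genes (1 at an unadjusted p under 0.05), DESeq2 called 0, and the block gave 1 rise (Atf3) and 3 falls. Both tools called 0 of 6 proliferation genes (0 at an unadjusted p under 0.05), and the 10 efferocytosis receptors were too low to be tested.

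The called genes of largest fold on the lower side, rule genes aside, were Cd180, a Toll-like receptor relative (log2 -1.57 ± 0.27), Adgre4 (-1.54 ± 0.46), the actin regulator Coro1b (-1.29 ± 0.15), the chromatin protein Hmga1 (-1.27 ± 0.16), Prkcb (-1.25 ± 0.20), Gpr65, an acid-sensing receptor (-1.21 ± 0.23), Il1rn, the phosphatase gene Ptpn22 (-1.13 ± 0.29) and Tbc1d16 (-1.11 ± 0.22). Prkcb ranged from 40.8 over 108 to 183 CPM in hCD2+ and from 139 over 280 to 386 CPM in hCD2- members, lower in 12 of 12 mice. In the droplets it was 162 and 376 CPM.

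**Figure D5:**
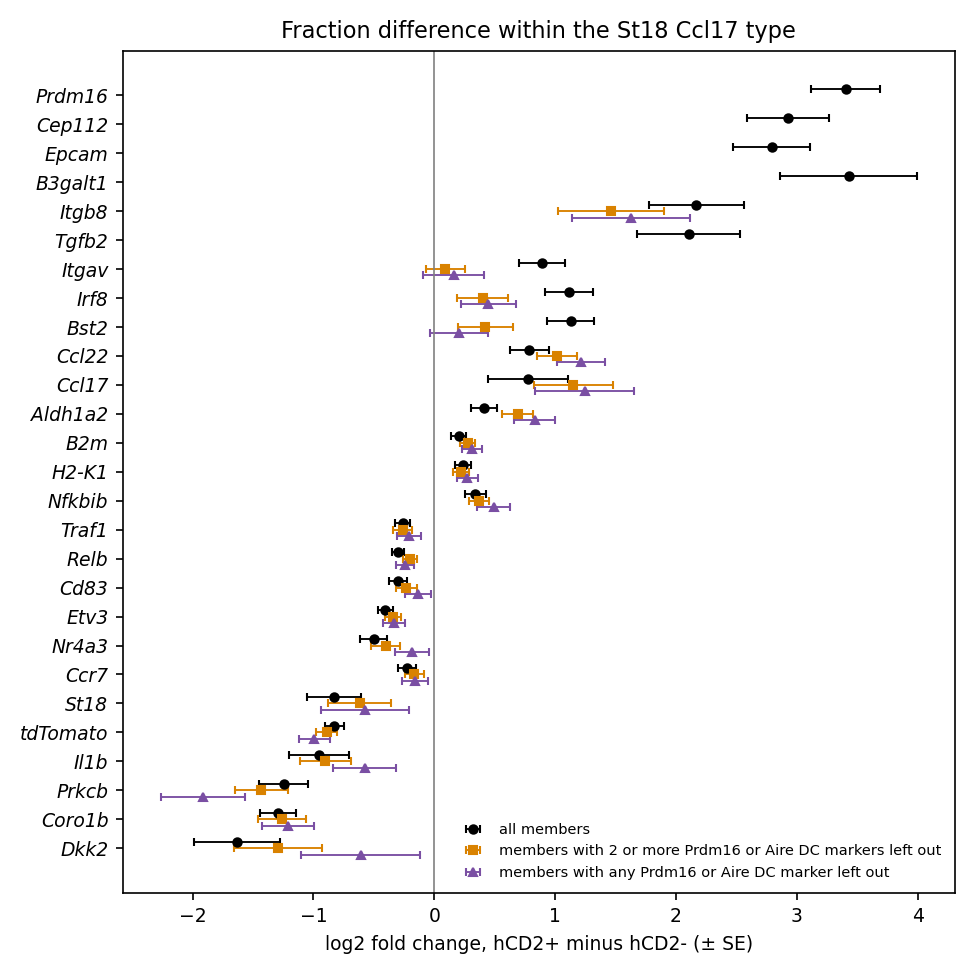
Log2 fold change, hCD2+ minus hCD2-, ± SE (x axis) of 27 genes within the St18 Ccl17 type, from all members (black), without members holding 2 or more Prdm16 or Aire DC markers (orange) and without members holding any (purple); a missing point was not tested. Aldh1a2 and Nfkbib stay right of 0 in all 3 fits, while Itgav and Bst2 move close to 0.

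The third test asked whether the fraction difference of the St18 Ccl17 type was unlike that of the Il12b Cpne8 type. edgeR called 5 of 7387 genes (0.0677%) for the difference between the types, 4 higher (0.0541%) and 1 lower (0.0135%), and 565 had an unadjusted p under 0.05. No gene was called when cells were thinned to 5000 UMIs. Mpeg1, a pore-forming protein of phagocytes, had a log2 of 2.16 in the St18 Ccl17 type (71.4 ± 23.9 against 15.6 ± 6.82 CPM) and 0.47 in the other type, a difference of 1.69 ± 0.34 (adjusted p = 0.0269). Mpeg1 had means of 671 CPM in the Prdm16-high CCR7 cells and 225 and 136 CPM in the droplets. Dpf3, a chromatin remodelling subunit (2.16 ± 0.42), Cc2d2a, a protein of the cilium (2.05 ± 0.42), and Tcirg1, a subunit of the proton pump (2.16 ± 0.45), were also more hCD2+ in the St18 Ccl17 type. Csf2rb, the shared receptor chain for GM-CSF, went the other way (-0.73 ± 0.16, adjusted p = 0.0437), with -0.39 in the St18 Ccl17 type and 0.34 in the other. With the mouse as a block 4 genes were called, 2 of these 5 among them, Tcirg1 and Dpf3 (the other 3 had an adjusted p of 0.0553).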

How the data were processed

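Both libraries were 10x 3' RNA counts of sorted mesenteric lymph node DCs with 12 hashtags. The deposited matrices hold UMI counts per gene and barcode, not normalized and with no cell filter, made with Cell Ranger 8.0.1 on mm10 per the submitters' processing notes; iCre, hCD2 and tdTomato were among the 32289 gene features. The other deposited tables give barcodes, gene names and the hashtag state of each called cell; the thresholds of that step are not given in the sources used here. Called cells held 178129025 gene UMIs in the hCD2+ and 150904166 in the hCD2- library. Members held 423546 to 2231887 UMIs per mouse in hCD2+ and 738852 to 4327992 in hCD2-.

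UMIs were summed per mouse, fraction and type (at least 10 cells). The test was the quasi-likelihood one of edgeR 4.0.16 in R 4.3.3, after filterByExpr and TMM scaling, at a Benjamini-Hochberg adjusted p under 0.05. SE is the log2 fold change over the root of F. CPM is UMIs over the total, times 1000000. Shares were compared with two-sided permutation tests (100000 resamples, fractions of a mouse not paired) in scipy 1.17.1, with exact sign flips over mice as the paired alternative. The fits were tested on simulated counts. Multiplets, as marked in the deposited tables, were left out, and no other doublet caller was run; sums without cells above 2 times the median UMIs were an alternative. Sequences are from RefSeq (GRCm38.p6); 2 symbols were printed. Alternatives were RLE scaling, DESeq2 1.42.0, no count filter, a mouse block, other cell minimums, thinning, a score margin of 5 UMIs, and leaving out deep cells, cells with T cell UMIs, genes that differ 2-fold in droplets, and members with Prdm16 or Aire DC markers.

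Members, 15 marker lists, 21 function lists and tests were chosen with earlier results of these data known. Named genes were those called with the largest fold, 10 in each direction (mean log2 CPM of at least 4, 1 direction in at least 3 of 4 mice), 2 to 4 per list by adjusted p, the reporters and the type's markers; between types, 15 of largest ratio each way and 2 to 4 per list; up to 5 each way for the difference between types. Predicted models, ribosomal, mitochondrial, immunoglobulin and sex-linked genes were not named by this rule, and 1 function list is not reported here for the fraction difference. Rps29, Xcr1, Clec9a, Cd209a, Mgl2, Cdh5, Zbtb46, Flt3, the genes set against chemokine level and the Cd40, Cd80, Cd86, Ebi3, Il10, Lgals1, Ido2, Runx3, Rel, Cadm1 and Sirpa values were chosen after seeing the data, most from the lists.

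Equal hashtags mark the same animal, per the labels. As a check, the deviations of a mouse from its group mean correlated between the fractions across 7263 genes, which are not independent, with r of -0.0219 to 0.271 (mean 0.161; over 0.1 in 9 of 12 mice), against a mean of -0.0143 for unequal hashtags.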

Additional observations from a re-analysis of the deposited data

Results flagged for a closer look

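The fraction difference of 5 genes differed between the 2 CCR7 DC types by the test of the difference itself (edgeR, St18 Ccl17 type minus Il12b Cpne8 type). The values were log2 2.16 for Dpf3, 2.05 for Cc2d2a, 1.69 for Mpeg1, 2.16 for Tcirg1 and -0.73 for Csf2rb. Dpf3, Cc2d2a and Tcirg1 were too low in the Il12b Cpne8 type for a fit within that type alone.

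Cells that the hashtag step did not assign to 1 mouse, which no comparison used, also held cells that met the membership rule. Of cells marked as multiplets with at least 5000 UMIs, 78 of 734 in the hCD2+ library (10.6%) and 80 of 455 in the hCD2- library (17.6%) did so. Of unassigned cells, 10 of 130 and 4 of 26 did so, and of blank cells 0 of 15 in each library.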

How the results depend on the processing

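The fraction difference within the type gave 1113 called genes, and 944 to 1266 under these alternatives: RLE scaling, DESeq2, no count filter, the mouse block, 5 or 20 cells per mouse, a score margin, and leaving out deep cells, cells with T cell UMIs or genes that differ in droplets. Thinning to 5000 UMIs left 389 calls among 2890 genes tested, 334 of them among the 627 earlier calls still tested. Leaving out members with 2 or more Prdm16 or Aire DC markers gave 650 calls, and with any such marker 240; Adam19 then turned to 0.057 and 0.18, and in the second also Ralgapa2 to -0.14. These 2 fits were added after the data were seen and have fewer cells, and the second has only 7 hCD2+ mice. Further causes were not tested. With the replicate block (mouse), 1264 genes were called, 1031 of them shared. Of the named genes, 10 passed with it and not without it, among them Socs1, Ptgs2, Hspa1a, Pla2g4a, Atf3 and Jund. The 2 named genes lost with the block were Fzd5 and Il4ra. Of the 55 named genes called outside the membership rule, 18 were called in the same direction under every alternative that tested them. Of these, 10 were tested in both fits without marker-holding members: Aldh1a2, Cd180, Coro1b, Etv3, Hmga1, Icosl, Nfkbib, Prkcb, Ptpn22 and tdTomato. The share differences held under all alternatives run, at -5.89 to -10.2 points of kept cells and -12.6 to -20.6 points of CCR7 DCs. For the difference between types, RLE, no filter, 5 cells and the block gave 4 or 5 calls, and thinning gave 0 of 2854 genes (edgeR; 201 at an unadjusted p under 0.05). With 12 mice a group, no mouse was left out in turn. Genes of few UMIs, Gm38411 and hCD2 among them, were below what this depth can test.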

Other observations

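Single genes of other lists differed between the types, as a description, while few of their lists' members did so by the 2-fold measure: 0 of 20 NF-kB, 0 of 7 interferon, 0 of 2 proliferation, 1 of 9 type 2 and 1 of 8 lipid genes at 50 CPM or more. In the St18 Ccl17 type Stat5a had a median of 252 against 120 CPM in the other type (higher in 19 of 21 pairs) and Tnip3, an NF-kB inhibitor, 134 against 44.6 CPM (20 of 21). Isg15, an interferon-induced ubiquitin-like gene, had 354 against 93.6 CPM (20 of 21), while Oasl1, of the same list, had 6.18 against 59.1 CPM (lower in 20 of 21). The lipid genes Abcg1, a cholesterol exporter, and Npc2, a lysosomal cholesterol carrier, had 122 against 255 CPM and 300 against 578 CPM, lower in 21 of 21 pairs. Mki67, a gene of dividing cells, had 96.8 against 38.0 CPM and was higher in 19 of 21.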
